A study of Mus musculus with 10 samples.

Results

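Polycomb repressive complex 2 (PRC2) was described here through 10 genes, chosen by name from the 55487 genes of the tables: the catalytic subunits Ezh1 and Ezh2, the core subunits Eed, Suz12, Rbbp4 and Rbbp7, and the accessory subunits Jarid2, Aebp2, Mtf2 and Phf19. All 10 were found by Ensembl gene ID in each RNA-seq table. The series maps R-loops, structures in which RNA pairs with a strand of DNA, in the mouse embryonic stem cell line E14. The group used here is RNA-seq (3 replicates) of E14 cells without a genetic change or a treatment in the labels. Per the labels' protocols, the cells were grown in medium with 15% serum, LIF, 3 µM GSK inhibitor and 1 µM MEK1/2 inhibitor, which every sample of the series shares. The other 7 of the 10 samples, MapR and BisMapR libraries of R-loop DNA and their controls, were not analysed here, so no contrast between conditions was made. The labels do not say whether the replicates were separate cultures, so the spread between them may be technical.

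PRC2 places methyl groups on lysine 27 of histone H3, and its trimethylated product, H3K27me3, marks silent developmental genes in embryonic stem cells. EZH1 or EZH2 holds the active site, which works only with EED, a reader of the mark, and SUZ12, the scaffold, while RBBP4 or RBBP7 binds histones. The core joins either a Polycomb-like protein (PHF1, MTF2 or PHF19) in the form called PRC2.1, or JARID2 and AEBP2 in the form called PRC2.2. RNA binds PRC2 and competes with its binding to chromatin, and R-loops have been described at Polycomb target genes.

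Since several subunits come as paralog pairs, the first question was how well sequencing reads can tell them apart. In each pair below the capitals mark the longest run of bases that both coding sequences share, with 20 bases on either side, 5′ to 3′ on the coding strand (GENCODE vM21, GRCm38). Coding bases were counted from the A of the start codon.

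Ezh2: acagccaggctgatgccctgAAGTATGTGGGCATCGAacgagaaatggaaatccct
Ezh1: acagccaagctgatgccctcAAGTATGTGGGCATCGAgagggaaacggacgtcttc
Rbbp4: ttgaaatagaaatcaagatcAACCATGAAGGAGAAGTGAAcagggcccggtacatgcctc
Rbbp7: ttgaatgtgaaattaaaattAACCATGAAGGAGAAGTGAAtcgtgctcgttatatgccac
Mtf2: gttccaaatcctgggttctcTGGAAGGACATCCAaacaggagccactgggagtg
Phf19: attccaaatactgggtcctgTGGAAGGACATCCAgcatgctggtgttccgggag

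The run shared by Ezh2 and Ezh1 was 17 bases long, at coding bases 2203 to 2219 of Ezh2 in exon 20 (chromosome 6, 47530563 to 47530579) and 2215 to 2231 of Ezh1 in exon 21 (chromosome 11, 101192961 to 101192977). Over the alignment, 70.4% of the 2143 aligned coding bases of this pair were identical. Rbbp4 and Rbbp7 shared 20 bases, in exon 4 of both genes (chromosome 4, 129322797 to 129322816, and chromosome X, 162769817 to 162769836), and 78.4% of 1272 aligned bases were identical. Mtf2 and Phf19 shared 14 bases, in exon 3 of both (chromosome 5, 108081200 to 108081213, and chromosome 2, 34911169 to 34911182), with 61.1% identity over 1679 aligned bases. No pair therefore shared a coding stretch of 50 bases, and no 50-base word of 1 member occurred in the annotated transcripts of another. Beyond the family, the share of a gene's 50-base words found on the same strand in transcripts of other genes was at most 0.862% for 9 members and 6.97% for Rbbp7. The Rbbp7 words lay in the processed pseudogene Gm6382, which had 0 counts in every replicate. With both strands searched, the share was 17.2% for Rbbp4, 11.2% for Rbbp7, 5.82% for Eed, 5.56% for Mtf2 and at most 2.60% for the other members. The strand setting of the counting is not given in the sources used here, and which share applies was not tested. The counts of Rbbp7, Eed and Mtf2 were whole numbers in every replicate, without the fractions that divided reads leave. Of the Rbbp4 words, 750 matched the reverse strand of Gm26722, a gene that is not among those counted.

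The label of the cells was set beside markers, which were listed with earlier results of these data known and so are no independent check. All 6 embryonic stem cell markers (Pou5f1, Nanog, Sox2, Esrrb, Zfp42 and Klf4) had a mean above 1 TPM, with means from 16.6 to 183 TPM. TPM is an abundance per transcript length, given as a share of the library. Of all protein-coding genes, 44.1% had a mean of at least 1 TPM. Among 6 fibroblast markers, Col3a1, Dcn, Lum and Postn had 0 counts in every replicate, Col1a2 had 0, 0 and 2 counts, and Col1a1 had 20, 8 and 3 counts in replicates 1, 2 and 3. The 6 summed to between 0.05 and 0.13 TPM. Of 3 blood markers, Ptprc and Hba-a1 had 0 counts and Cd3e had 11, 8 and 1 counts. Libraries held 5787357 to 11420425 estimated counts, of which the 10 PRC2 genes held 0.175% to 0.205%. Replicate 3 stood apart over all genes: the biological coefficient of variation was 0.162 with all 3 libraries and 0.0906 without replicate 3.

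Of the 10 genes, 9 reached a mean of 1 TPM, Phf19 being the exception. That level was reached by 19.8% of all genes and 44.1% of protein-coding genes. The median of the 10 genes was 5.35 ± 0.30 (SD, n = 3) in log2(TPM + 1), beside 2.72 ± 0.29 (SD, n = 3) for the 9683 protein-coding genes of mean TPM at least 1. The 10 genes spanned means from 0.363 to 56.9 TPM, and 6 of them lay between 37.6 and 56.9 TPM. In such bulk RNA, fewer cells that use a gene and less RNA per cell cannot be told apart.

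The catalytic subunits differed. Ezh2 (ENSMUSG00000029687, chromosome 6, 47530139 to 47595341, minus strand) had 55.3, 39.9 and 35.2 TPM in replicates 1, 2 and 3, from 2131, 1194 and 1011 counts. Ezh1 (ENSMUSG00000006920, chromosome 11, 101191115 to 101226463, minus strand) had 9.36, 5.83 and 4.12 TPM in the same order, from 564, 268 and 199 counts. Every Ezh2 value lay above every Ezh1 value. The log2 ratio of Ezh2 to Ezh1 within a replicate was 2.56, 2.77 and 3.10, a mean of 2.81 ± 0.27 (SD, n = 3), or 7.02-fold. Ezh2 supplied 87.4% ± 2.01 (SD, n = 3) of the summed TPM of the pair. EZH2 is the enzyme form of dividing cells, and EZH1 is better known from cells that have stopped dividing.

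In TPM, the partners that complete the active enzyme stood close to Ezh2. Suz12 (ENSMUSG00000017548, chromosome 11, 79993106 to 80034123, plus strand), the scaffold, had 66.6, 49.8 and 35.5 TPM in replicates 1, 2 and 3. Eed (ENSMUSG00000030619, chromosome 7, 89954654 to 89980983, minus strand), which reads the mark, had 56.7, 51.2 and 37.8 TPM. The ranges of Suz12, Eed and Ezh2 overlapped. The log2 ratio of Suz12 to Eed was 0.035 ± 0.172 (SD, n = 3), positive in 1 of 3 replicates. That of Ezh2 to Suz12 was -0.20 ± 0.17 (SD, n = 3), with -0.27, -0.32 and -0.012 in replicates 1, 2 and 3. In replicate 3 these 2 genes were thus nearly equal. Without replicate 1 the ratio of Suz12 to Eed was -0.063, so its sign rests on that library. In counts, which are not scaled by length, Suz12 had more, 4800, 2884 and 1996, than Eed, with 1176, 768 and 635. The log2 ratio of Ezh2 to Suz12 was -1.14 in counts and -0.49 in counts per longest annotated transcript, so the closeness depended on the length scale.

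The histone-binding subunits are shared with other chromatin complexes such as NuRD, so their RNA does not belong to PRC2 alone. Rbbp4 (ENSMUSG00000057236, chromosome 4, 129307100 to 129335370, minus strand) had the highest mean of the 10 genes, with 72.7, 58.0 and 39.9 TPM in replicates 1, 2 and 3. Rbbp7 (ENSMUSG00000031353, chromosome X, 162760402 to 162779092, plus strand) had 45.9, 34.9 and 32.1 TPM. Rbbp4 was higher in 3 of 3 replicates, while the ranges of the pair overlapped. The log2 ratio of Rbbp4 to Rbbp7 was 0.57 ± 0.23 (SD, n = 3), and Rbbp4 supplied 59.7% ± 3.79 (SD, n = 3) of the pair's TPM. Rbbp4 counts were the only ones among the members with fractions, which arise where a read is divided between genes.

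Mtf2 and Phf19 gave the widest difference. Mtf2 (ENSMUSG00000029267, chromosome 5, 108065674 to 108109004, plus strand), a Polycomb-like protein that binds CG-rich DNA, had 59.6, 52.7 and 43.8 TPM in replicates 1, 2 and 3, from 5045, 3199 and 2495 counts. Phf19 (ENSMUSG00000026873, chromosome 2, 34893757 to 34914026, minus strand), its paralog, had 0.44, 0.43 and 0.22 TPM from 43, 24 and 12 counts. The exact Poisson 95% intervals of the Phf19 counts were 31.1 to 57.9, 15.4 to 35.7 and 6.2 to 20.96, which cover counting error only and lie above the floor of 3 counts in every replicate. The log2 ratio of Mtf2 to Phf19 was 7.22 ± 0.37 (SD, n = 3), or 149-fold. Phf1, the remaining Polycomb-like gene, had 1.13, 1.09 and 0.38 TPM, so that Mtf2 supplied 97.8% ± 0.78 (SD, n = 3) of the TPM of the 3 genes.

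The subunits of PRC2.2 were lower than Mtf2. Jarid2 (ENSMUSG00000038518, chromosome 13, 44729474 to 44921643, plus strand), a Jumonji family protein that helps bring PRC2 to its sites, had 22.3, 17.5 and 16.2 TPM in replicates 1, 2 and 3. Aebp2 (ENSMUSG00000030232, chromosome 6, 140622663 to 140678472, plus strand), a zinc finger protein, had 12.2, 9.84 and 8.04 TPM. Every Jarid2 value lay above every Aebp2 value and below every Mtf2 value. Summed, Jarid2 and Aebp2 had 34.5, 27.4 and 24.2 TPM and Mtf2 and Phf19 had 60.1, 53.2 and 44.0 TPM. The log2 ratio of the sums was -0.87 ± 0.08 (SD, n = 3), negative in 3 of 3 replicates. The sums are unlike, since JARID2 and AEBP2 join the core together while MTF2 and PHF19 are alternatives. Phf1 and Epop were not in them, so the ratio does not give the proportion of the PRC2 forms.

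**Figure D1:**
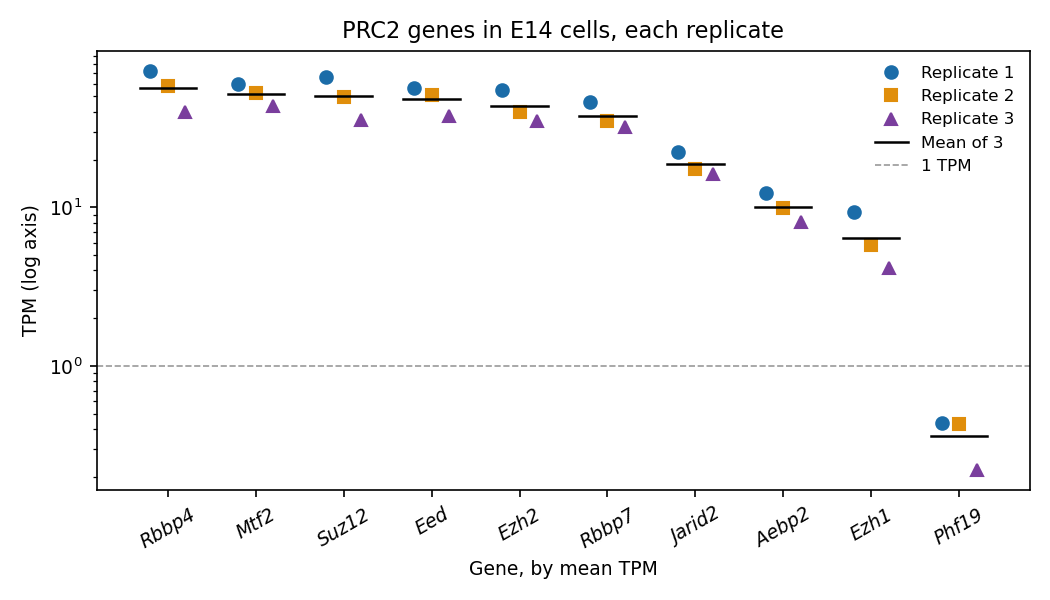
TPM (log axis) of the 10 PRC2 genes in each of 3 RNA-seq replicates, ordered by mean TPM, with a bar at the mean and a dashed line at 1 TPM. The values of the genes from Rbbp4 to Rbbp7 lie between 32.1 and 72.7 TPM, and Phf19 lies below 1 TPM in every replicate.

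In order of mean TPM the genes ran Rbbp4, Mtf2, Suz12, Eed, Ezh2, Rbbp7, Jarid2, Aebp2, Ezh1, Phf19. Each gene from Rbbp4 to Ezh2 overlapped in range with the next one, and ranks 1 to 4 changed places between replicates. Rbbp7 did not overlap with Jarid2, nor Jarid2 with Aebp2, nor Ezh1 with Phf19, and the fold differences of their means were 2.02, 1.86 and 17.7. Aebp2 and Ezh1 overlapped in range, although Aebp2 was the higher in 3 of 3 replicates. Ranks 5 to 10 were the same in every replicate. With 1 condition there is no pattern across conditions by which other genes could be matched to these.

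The 6 ratios were tested over the 3 replicates with an exact two-sided sign-flip permutation test. The smallest p this design allows is 0.25, so no ratio could pass a threshold. The permutation p was 0.25 (adjusted over the 6 ratios, 0.3) for 5 ratios and 1 for Suz12 to Eed, n = 3 each.

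**Figure D2:**
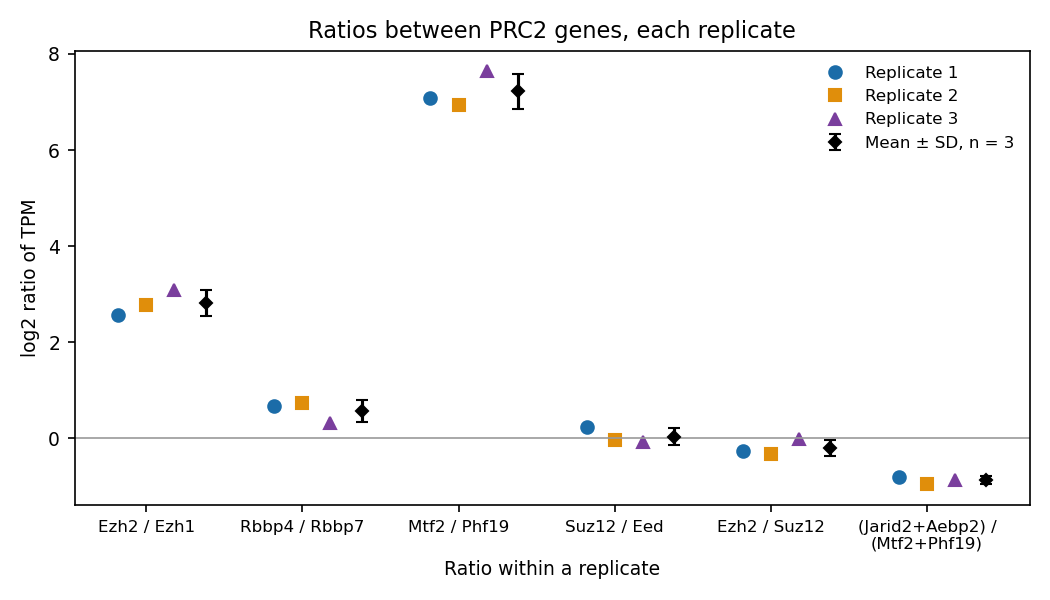
log2 ratio of TPM between PRC2 genes within each of 3 replicates (coloured symbols) with mean ± SD (black diamonds, n = 3) and a line at 0, equal TPM. Mtf2 to Phf19 lies at 7.22 and Ezh2 to Ezh1 at 2.81, while Suz12 to Eed lies on both sides of 0.

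These levels rest on the length assigned to each gene. The tables give per gene and replicate a length that is the mean over its transcripts, weighted by their estimated abundance. For every gene but Phf19 it was shorter in every replicate than the longest annotated coding transcript. Eed-201, the longest coding transcript of Eed, has 2067 nt, and the deposited lengths of Eed were 902, 937 and 1019 nt, or 43.6% to 49.3% of it. For Rbbp4 the lengths were 1947, 2035 and 2078 nt beside 4407 nt for Rbbp4-201. For Ezh2 they were 1559, 1724 and 1645 nt beside 2787 nt for Ezh2-201. Annotated records shorter than these therefore received part of the estimated abundance. Mtf2 came closer to full length, at 77.2% to 82.3% of Mtf2-201. Phf19 had a length of 3741 nt in replicate 1, that of its coding transcript Phf19-201, and of 2978 nt in replicate 3, that of a noncoding transcript of the gene. With 43 and 12 counts behind these values, the choice of transcript cannot be resolved at this depth. Of the 10 genes, 9 had all of their listed transcripts in GENCODE vM21, and Eed had 10 of 12.

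**Figure D3:**
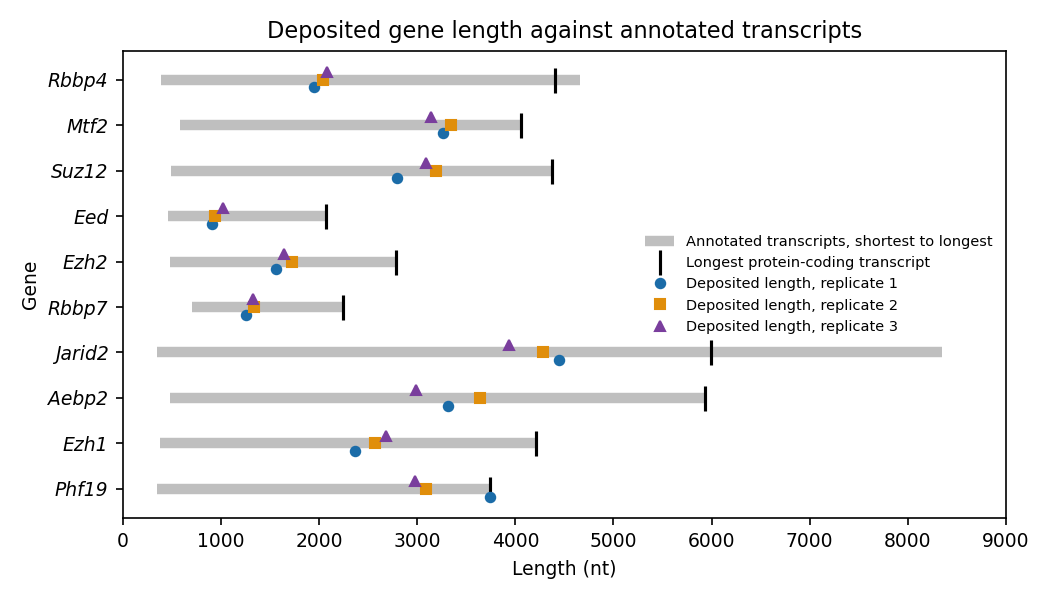
Deposited gene length in nt (x axis) of each PRC2 gene in 3 replicates, over a grey bar from the shortest to the longest annotated transcript, with a black tick at the longest protein-coding one. Eed and Rbbp4 lie at under 50% of the black tick in every replicate, and Phf19 meets it in replicate 1.

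When counts were divided by 1 fixed length per gene, that of the longest annotated transcript, the order among the highest genes changed. For Rbbp4 and Jarid2 that transcript is a noncoding record with a retained intron, of 4663 and 8353 nt. Their longest coding transcripts have 4407 and 5997 nt, so a coding length would raise both genes. The order of Ezh2 and Rbbp4 on this scale depends on that choice. On that scale Mtf2 led with 112.3 ± 8.38 (SD, n = 3) CPM per kb, where CPM is counts as a share of the library, followed by Suz12 at 92.3 ± 12.01 (SD, n = 3), Ezh2 at 65.3 ± 2.29 (SD, n = 3) and Rbbp4 at 63.5 ± 7.82 (SD, n = 3). Eed fell from rank 4 to rank 6, at 53.5 ± 3.83 (SD, n = 3). Ranks 7 to 10, from Jarid2 to Phf19, stayed as they were in TPM. The log2 ratio of Suz12 to Eed was then 0.78 and that of Ezh2 to Suz12 was -0.49. The ratio of Ezh2 to Ezh1 was 2.73 and that of Mtf2 to Phf19 was 7.09, near their values in TPM.

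**Figure D4:**
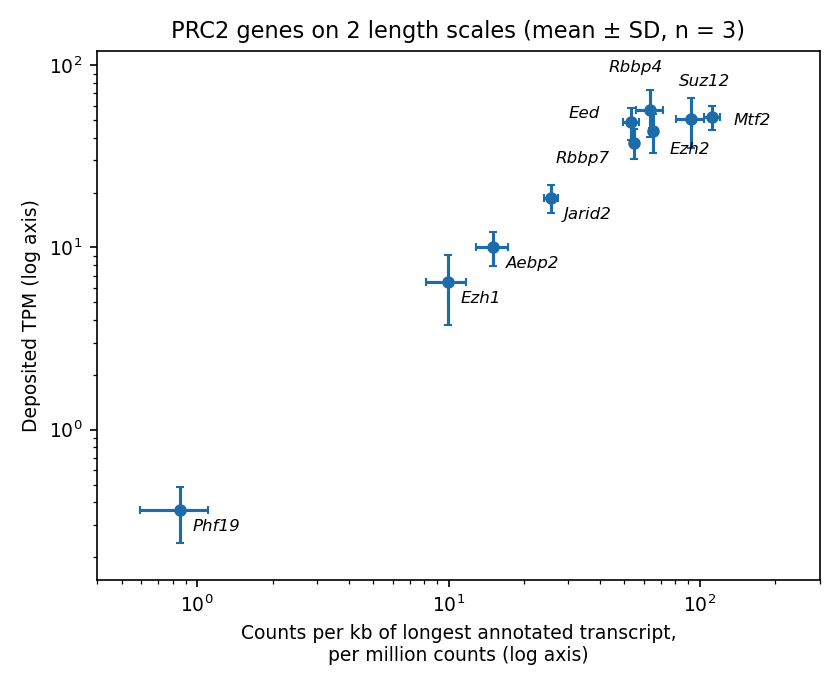
Deposited TPM (y, log axis) against CPM per kb of the longest annotated transcript (x, log axis) for the 10 PRC2 genes, points at the mean with SD bars (n = 3). Mtf2 and Suz12 lie farthest right while their TPM stays within the spread of Rbbp4 and Eed.

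The replicates were compared next. All 10 genes had their highest TPM in replicate 1 and their lowest in replicate 3, as did 72.1% of protein-coding genes of mean TPM at least 1. Lowest in replicate 3, whatever the highest, were 79.4% of them. TPM of longer genes depends on the short RNAs in its total, and genes of effective length under 100 nt held 60.3% to 65.8% of it. With those genes left out, log2 TPM of the others rose by 1.33, 1.55 and 1.47 in replicates 1, 2 and 3. On that scale all 10 genes were again lowest in replicate 3, beside 82.2% of the same protein-coding genes. On CPM scaled by TMM, a normalization that ignores length, 5 of the 10 were lowest in replicate 3, beside 41.4% of protein-coding genes tested. The drop of the 10 genes in TPM was thus shared by most genes and depended on the scaling.

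In TMM-scaled CPM the replicates lay closer together. Ezh2 had 179, 180 and 190 in replicates 1, 2 and 3, a coefficient of variation of 3.56%. Jarid2 had 218, 207 and 220, a coefficient of variation of 3.12%. Suz12 had 402, 435 and 376, and Eed had 98.5, 116 and 120. The widest among genes above 1 TPM was Ezh1, with 47.3, 40.4 and 37.5 and a coefficient of variation of 12.03%. Phf19, at few counts, had 3.6, 3.62 and 2.26 and 24.7%. All 10 genes passed the filter on low counts, as did 12577 of all 55487 genes and 11221 of the 21974 protein-coding genes. The goodness-of-fit test of edgeR asks whether a gene's spread exceeds the trend for its abundance. It called 0 of the 10 genes at an adjusted p under 0.05. The smallest unadjusted p was 0.444, for Phf19, so 0 of 10 were under 0.05 without adjustment. Of 12577 genes tested, 1.84% were called and 6.96% had an unadjusted p under 0.05, so a count of 0 among 10 genes lies near the share of all genes. DESeq2 size factors, an alternative normalization, also gave 0 of 10.

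The genes around the complex were read from lists. Among 5 other accessory genes, Epop, Lcor and Lcorl had a mean above 1 TPM and Phf1 and Ezhip did not. A mean of at least 1 TPM was reached by 44.1% of protein-coding genes. Epop, a partner of PRC2.1 known from embryonic stem cells, was highest with 14.3, 12.6 and 11.9 TPM in replicates 1, 2 and 3. Lcor, whose locus encodes the PRC2.1 partner PALI1, had 4.92, 3.58 and 2.56 TPM, and Lcorl, its paralog, 3.54, 2.81 and 2.46 TPM. Ezhip, an inhibitor of EZH2 known from germ cells, is named AU022751 in the annotation and had 33, 12 and 8 counts, or 0.72, 0.34 and 0.22 TPM. Of the 4 that passed the filter, 0 varied beyond the trend by edgeR at an adjusted or an unadjusted p under 0.05, beside 1.84% and 6.96% of all genes tested.

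All 5 genes for enzymes that act against the mark had a mean of at least 1 TPM, beside 44.1% of protein-coding genes. These enzymes remove the mark or acetylate the same lysine. Here 2 of 5 varied beyond the trend, beside 1.84% of all genes tested, and 3 of 5 had an unadjusted p under 0.05 by edgeR, beside 6.96%. Kdm6b, a demethylase of H3K27, had 62.8, 60.7 and 14.9 TMM-scaled CPM in replicates 1, 2 and 3 (edgeR adjusted p = 1.33e-06). Crebbp, an acetyltransferase, had 136, 128 and 52.4 (edgeR adjusted p = 0.00804). In both the value of replicate 3 lay apart from the other two, and without replicate 3 the adjusted p of each was 0.999 by edgeR. Without replicate 2, that of Crebbp was 0.092 and that of Kdm6b 0.00295. Ep300, the paralog of Crebbp, had 180, 167 and 81.4 (edgeR adjusted p = 0.084), and an adjusted p of 0.0293 with protein-coding genes alone. Kdm6a, the other widely expressed demethylase, had 83.4, 77.9 and 83.4, and its Y-linked relative Uty 53.5, 56.5 and 69.1, neither called. Replicate 3 was the smallest library, and the part of depth in its low values was not tested.

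**Figure D5:**
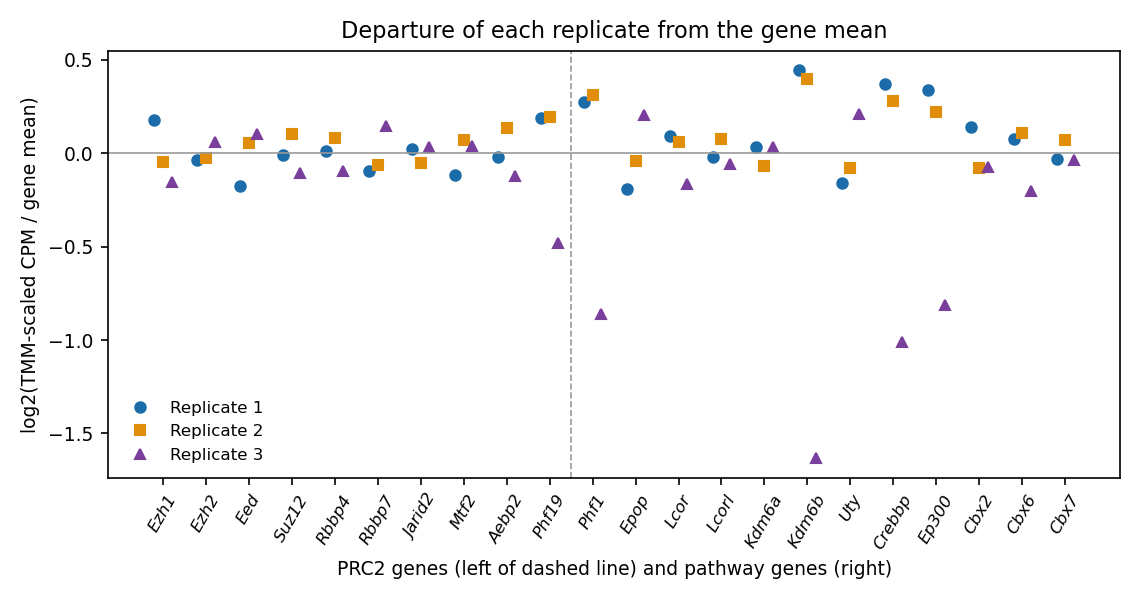
log2 of TMM-scaled CPM over the gene's mean (y) in each replicate for the 10 PRC2 genes, left of the dashed line, and 12 listed pathway genes that passed the filter, right of it. Replicate 3 lies far below the others for Kdm6b, Crebbp, Ep300 and Phf1, while 9 PRC2 genes lie near 0 in every replicate.

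CBX proteins read H3K27me3 as part of PRC1. Of the 4 genes read here, 3 had a mean of at least 1 TPM, beside 44.1% of protein-coding genes. Cbx7 was highest with 16.9, 16.5 and 10.5 TPM in replicates 1, 2 and 3, followed by Cbx2 with 3.96, 2.71 and 2.36 TPM and Cbx6 with 3.19, 2.79 and 1.88 TPM. Cbx8 had 0.36, 0.41 and 0.42 TPM. Cbx7 is the CBX gene best known from embryonic stem cells. Of the 3 that passed the filter, 0 varied beyond the trend by edgeR at an adjusted or an unadjusted p under 0.05, beside 1.84% and 6.96% of all genes tested.

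Developmental genes known as targets of PRC2 in embryonic stem cells were mostly low in TPM. Of 19 such genes, 1 had a mean of at least 1 TPM, beside 44.1% of protein-coding genes. This was Hoxc13, a posterior Hox gene, with 2.17, 1.57 and 0.72 TPM in replicates 1, 2 and 3 from 137, 69 and 32 counts. On the scale without short genes, which raises the other genes as a whole, 4 of the 19 reached that level. The share of protein-coding genes on that scale is not given here, so the 44.1% is not its background. The 4 targets that passed the filter on low counts were Hoxc13, Hoxb13, Hoxd13 and Gata4. Of the 21974 protein-coding genes, 11221 passed it. Hoxb13 had 36, 17 and 15 counts in replicates 1, 2 and 3, Hoxd13 43, 19 and 13, and Gata4 47, 19 and 12. Of these 4, 0 varied beyond the trend by edgeR at an adjusted or unadjusted p under 0.05. The shares of all genes tested were 1.84% and 6.96%. Foxa2, Olig2, Nkx2-2 and Dlx5 had 0 counts in every replicate, and 9 of the 19 had at most 3 counts in each. The shares of all protein-coding genes with so few counts are not given here, so these numbers have no background. A floor of 3 counts is 0.263 to 0.518 CPM, so lower levels of these targets were not detectable at this depth. The list's median was 0.084 ± 0.041 (SD, n = 3) in log2(TPM + 1), beside 0.53 ± 0.11 (SD, n = 3) for all 21974 protein-coding genes. H3K27me3 itself was not measured, so these levels say nothing of the mark.

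The promoters of the pair with the widest difference, Mtf2 and Phf19, are shown because MTF2 binds CG-rich DNA and the pair differs in level. Each sequence is the part of the RefSeq promoter window (GRCm38.p6) that lies before the first annotated exon on the gene's strand, 5′ to 3′, with every CG in capitals.

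Mtf2: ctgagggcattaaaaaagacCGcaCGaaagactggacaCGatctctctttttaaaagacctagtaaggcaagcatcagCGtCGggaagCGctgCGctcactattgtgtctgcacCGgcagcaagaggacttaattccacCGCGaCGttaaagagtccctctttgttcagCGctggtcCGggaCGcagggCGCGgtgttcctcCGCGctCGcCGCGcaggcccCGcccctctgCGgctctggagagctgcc
Phf19: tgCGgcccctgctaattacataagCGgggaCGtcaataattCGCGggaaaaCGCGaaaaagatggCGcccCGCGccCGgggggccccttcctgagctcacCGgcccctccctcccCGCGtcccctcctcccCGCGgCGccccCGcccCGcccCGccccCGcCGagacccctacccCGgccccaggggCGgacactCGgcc

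The Mtf2 stretch is chr5:108065424-108065673 on the plus strand, with 23 CG in 250 bases, and the Phf19 stretch is chr2:34914027-34914226 on the minus strand, with 25 CG in 200 bases. The Phf19 stretch overlaps an exon of Gm13448 on the opposite strand, a gene with 1, 0 and 0 counts in replicates 1, 2 and 3. In full windows, which run from 250 bases before the start to 50 after it, Mtf2 had 30 CG at its first start and Phf19 had 38. Phf19, the gene with the lower RNA level, thus had the more CG of the pair. A second Mtf2 window, chr5:108077915-108078214, held 2 CG, a number reached by 85.9% of all windows. The table held 14 windows for the 10 genes, and the first-listed window of 9 of them held from 17 to 41 CG. The median of all 32851 windows was 7, and 94.6% held at least 1. Suz12 had the most, 41, a number reached by 3.46% of all windows. Eed had 17 in its window, reached by 31.4%. Of the 3 windows of Aebp2, the first and the last held 4 CG each and the middle one 21. The motif searched was CG, which reads the same on both strands.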

How the data were processed

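RNA-seq of E14 cells (3 replicates) was analysed, with groups and replicate numbers read from the sample titles. Ribosomal RNA was removed and a directional kit was used, per the labels' protocols. Per the submitters' processing notes, STAR and RSEM were among the tools and mm10 was the build; versions, annotation release and strand setting are not given in the sources used here. Per the file headers, the authors deposited expected counts, without normalization, and TPM for each gene. TPM has the same sum in each library. The authors also deposited a length and an effective length in nt per gene. Names and coordinates came from GENCODE vM21 (GRCm38, the build mm10 names), which matched 55227 of 55487 IDs; 260 did not match. Promoters came from RefSeq (GRCm38.p6) and matched 10 of 10 members.

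Expected counts were rounded for edgeR 4.0.16 in R 4.3.3, with TMM, filterByExpr and an intercept-only design. Its goodness-of-fit test under the trended dispersion was adjusted by Benjamini-Hochberg over all genes tested and was tested on simulated data. DESeq2 1.42.0 size factors were an alternative. Levels used log2(TPM + 1). Library totals were 11420425, 6467405 and 5787357 in replicates 1, 2 and 3; counts limit the precision of low genes. Coding sequences were aligned globally, and 50-base and 100-base words were searched on both strands of all annotated transcripts. Other steps ran in Python 3.11.15 with scipy 1.17.1. FPKM was not used.

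The genes named are the members, the listed genes and those that overlap or share words with a member. The members and lists were chosen with earlier results of these data known. Of the listed genes, 2 are not reported here and were left out of the counts of their lists.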

Additional observations from a re-analysis of the deposited data

How the results depend on the processing

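The 10 comparisons were recomputed under 63 alternatives, of which 46 stayed the same by the limits set, 16 moved and 1 reversed. The number of members with a mean of 1 TPM stayed at 9 in every alternative but CPM, at 10, and the number varying beyond the trend at 0 in each. The reversal was Suz12 to Eed, -0.063 without replicate 1 against 0.035. With counts per longest annotated transcript the log2 ratios became 0.78 for Suz12 to Eed, 0.20 for Rbbp4 to Rbbp7, -0.49 for Ezh2 to Suz12 and -1.48 for the PRC2.2 to PRC2.1 sums. With no length scaling they became 1.86, 1.26, -1.14 and -0.60 in that order, and 2.14 for Ezh2 to Ezh1. These alternatives change the length alone. The longest transcript of Rbbp4 and of Jarid2 is a noncoding one, which makes 0.20 and -1.48 lower than a coding length would. Adding Phf1 and Epop to the PRC2.1 side gave -1.21, and a pseudocount of 1 gave 5.28 for Mtf2 to Phf19. Leaving out each replicate in turn gave 2.67 to 2.93 for Ezh2 to Ezh1, 0.49 to 0.70 for Rbbp4 to Rbbp7, 7.01 to 7.36 for Mtf2 to Phf19, -0.063 to 0.096 for Suz12 to Eed, -0.29 to -0.14 for Ezh2 to Suz12 and -0.91 to -0.83 for the sums.

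The median level of the members was 4.45 when averaged and 6.78 when genes of effective length under 100 nt were dropped from the TPM total; without each replicate in turn it was 5.19 to 5.47. The number of target genes at 1 TPM was 1, and 0 with a limit of 5 TPM, 4 with CPM and 4 with short genes left out. Without each replicate in turn it was 1. The cause was not tested beyond what each alternative changes. The share of all genes under these alternatives is not given here, nor that beside the number of members with CPM.

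A further 61 alternatives for single genes were chosen after seeing the data. The TPM of each member moved with short genes left out, by about the shift given for all genes. The call of Crebbp was also lost without replicate 2, at an adjusted p of 0.092 by edgeR.

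No paired analysis was possible because 1 group alone was analysed.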

Other observations

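Some annotated genes overlap a member on the opposite strand. Tmed5, opposite Mtf2 over 2639 bases, had 281, 183 and 141 counts in replicates 1, 2 and 3, and Txlng, opposite Rbbp7 over 174 bases, had 722.8, 374.5 and 315.4. Sync, opposite Rbbp4 over 1460 bases, had 13, 7 and 3 counts, and E230029C05Rik, opposite Eed over 261 bases, had 9, 9 and 6. Each had fewer counts than its partner in every replicate. The counts of Mtf2, Tmed5, Eed, E230029C05Rik, Rbbp7 and Sync were whole numbers in every replicate, while those of Rbbp4 and Txlng held fractions. The strand setting of the counting is not given in the sources used here. How reads were assigned where such partners overlap was not tested. Gm45120, which lies inside Eed on the same strand, had 1, 1 and 0 counts. Gm4800, a processed pseudogene that shares 35 words with Rbbp4, had 3.18, 5.26 and 1.07 estimated counts. Jarid2 and Phf19 shared 0 words of 50 bases with any other gene.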
